A study of Mus musculus with 32 samples.

Results

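Macrophages that live in fat were compared here in animals whose myeloid cells lacked A20. The members are 8 of the series' 32 RNA-seq libraries: 4 of CD11c+ and 4 of CD206+ adipose tissue macrophages of A20 knockout mice on standard diet (SD), chosen by the sample titles. The mice were C57BL/6J with a myeloid-specific knockout of A20, fed SD for 12 weeks; no age or Cre driver was found in the labels. Cells were sorted by flow cytometry from epididymal white fat, the CD11c+ population as CD206 low and CD11c high, the CD206+ population as CD206 high and CD11c low. Both populations carried the knockout, so each difference below is between populations within 1 genotype and 1 diet. The same populations of wild-type C57BL/6J mice on SD and of A20 knockout mice after 12 weeks of high-fat diet (HFD), with 4 libraries per population in each, were set beside them. The question was which differences between the populations hold without A20.

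The Tnfaip3 gene encodes A20, which edits ubiquitin chains on signalling proteins and so limits NF-kB activation downstream of TNF, Toll-like and IL-1 receptors. Fat holds several kinds of macrophage. Cells rich in CD206, the mannose receptor encoded by Mrc1, sit along vessels and between adipocytes and are known for scavenging and tissue upkeep. Cells with CD11c, the integrin alpha X encoded by Itgax, accumulate around dying adipocytes in obesity and are known for lipid handling and cytokine output, and dendritic cells carry CD11c as well.

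The libraries held 18.6 to 21.9 M reads in genes. CD11c+ libraries had reads in 14314 to 14784 genes and CD206+ libraries in 15169 to 15329. Reads outside genes made up 5.16% to 6.86% of the CD11c+ tables and 8.44% to 10.2% of the CD206+ tables, without overlap, and the part of this gap in the results was not tested. The first principal component held 65.7% of the variance and separated the populations. The second, with 9.59%, set replicate 4 of both populations apart from the other libraries, at -30.1 and -41.7 against 4.18 to 21.9. Whether each library came from its own mouse is not stated. The p-values therefore rest on the variation among libraries, part of which may be technical. The main fit estimated that variation from all 32 libraries of the series, not from these 8 alone. In bulk RNA, fewer cells of a type and less RNA per cell cannot be told apart. Levels are CPM, reads scaled to a library total of 1e+06, and compare 1 gene between libraries, not genes with each other.

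Reads of the targeted gene Tnfaip3 (chr10:19000910-19015410, GRCm38) were fewer in the knockout libraries. Its level was 246, 474, 443 and 322 CPM in CD11c+ replicates 1 to 4 and 245, 277, 314 and 214 CPM in CD206+ replicates 1 to 4. Wild-type libraries on the same diet read 1350 to 1650 CPM in CD11c+ and 486 to 738 CPM in CD206+ cells, with no overlap between genotypes in either population. The labels do not give the deleted stretch of the gene, so these reads do not measure how much functional transcript was left. Within the knockout, Tnfaip3 was 0.50 ± 0.20 (log2, SE) higher in CD11c+ cells with overlapping libraries, and its adjusted p of 0.0326 did not hold without CD11c+ replicate 2 (0.145), CD11c+ replicate 3 (0.111), CD206+ replicate 1 (0.0666) or CD206+ replicate 4 (0.0992).

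Without A20 the populations were far apart. Of 13453 genes tested, 3440 (25.6%) were higher and 3509 (26.1%) lower in CD11c+ than in CD206+ cells at an adjusted p under 0.05 by edgeR's quasi-likelihood test with Benjamini-Hochberg adjustment. The 4 libraries of each population did not overlap for 2879 of the higher and 2680 of the lower genes. Large differences were more often lower than higher levels in CD11c+ cells: 1615 lower and 883 higher genes differed by over 2-fold, and 187 and 148 by over 8-fold. The median log2 difference of all tested genes was -0.05. The test did not pair libraries by replicate number. With that number as a block, 3720 genes were higher and 3850 lower.

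**Figure D1:**
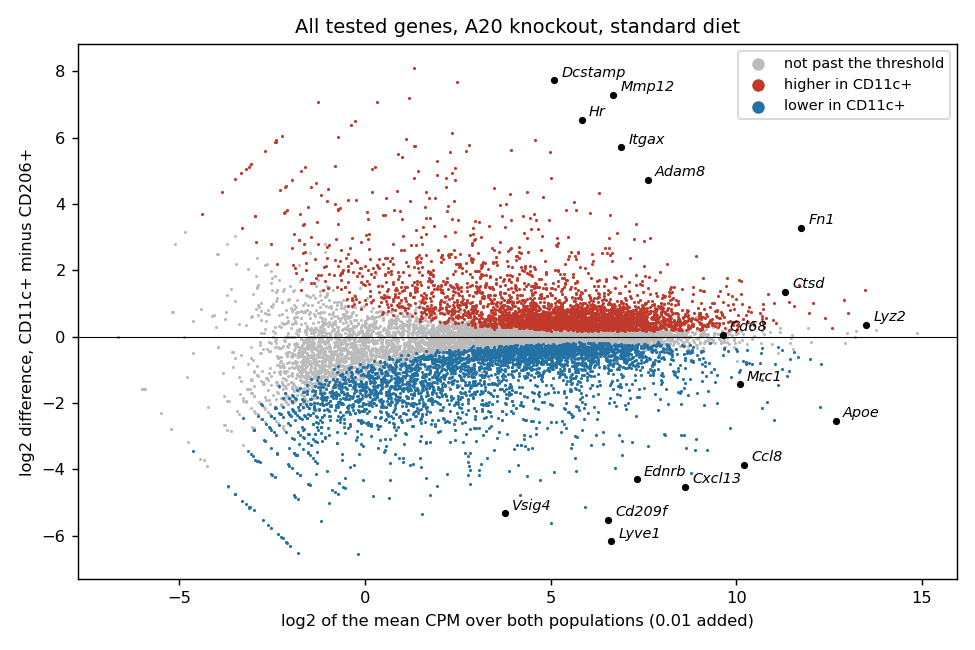
Each point is 1 of 13453 genes, with the log2 of its mean CPM over both populations on the x axis and the log2 difference of CD11c+ minus CD206+ cells on the y axis. Red and blue points are the 3440 higher and 3509 lower genes, and labelled genes reach from Dcstamp at 7.72 to Lyve1 at -6.16.

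The genes of the sort followed the labels. Itgax (chr7:128129526-128150657) stood at 209, 243, 218 and 269 CPM in the CD11c+ libraries and at 2.58, 4.62, 2.71 and 8.24 CPM in the CD206+ libraries, a log2 difference of 5.70 ± 0.36. Mrc1 (chr2:14229414-14332023) stood at 722, 510, 564 and 562 CPM in CD11c+ and at 1590, 1840, 1630 and 1300 CPM in CD206+ cells, a difference of -1.43 ± 0.12. Neither gene overlapped, and both proteins had served to sort the cells, so these values check the labels only. The CD206 low cells kept clear Mrc1 reads. Among macrophage lineage genes, Cd68, a lysosomal glycoprotein, differed by 0.06 ± 0.09 (adjusted p = 0.624) and Cd14, the LPS co-receptor, by -0.18 ± 0.21 (adjusted p = 0.488). Adgre1, which encodes F4/80, was 810 to 1130 CPM in CD11c+ and 1530 to 1800 CPM in CD206+ cells (-0.78 ± 0.13). Csf1r, the receptor for macrophage colony-stimulating factor, was lower by a similar margin (-0.62 ± 0.14), as were Mertk, a receptor for dying cells (-0.96 ± 0.21), and Fcgr1, the high-affinity IgG receptor (-1.43 ± 0.23). Ptprc, the pan-leukocyte antigen CD45, was higher in CD11c+ cells (0.79 ± 0.17).

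**Figure D2:**
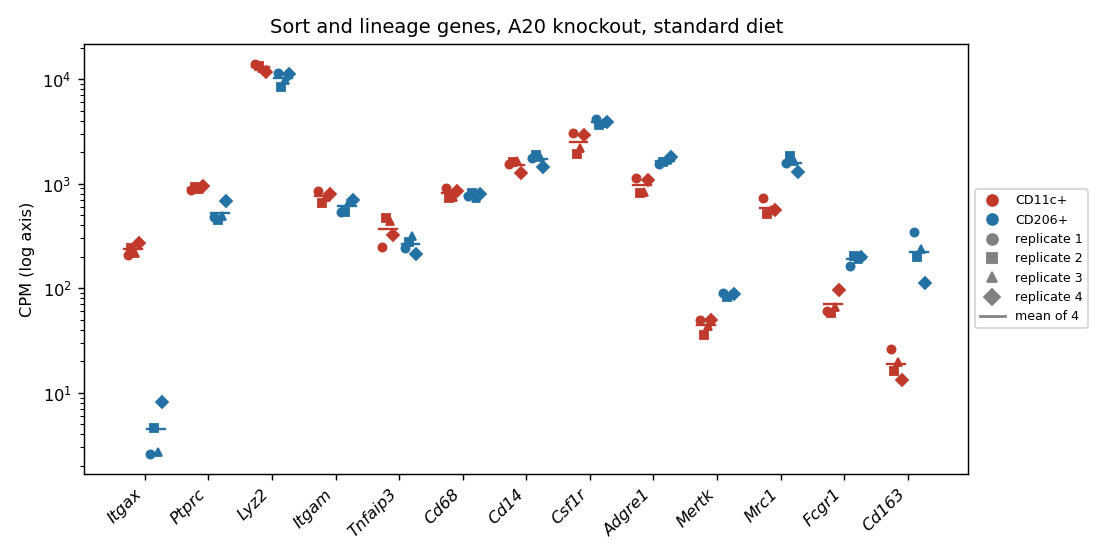
CPM of 13 sort and lineage genes on a log axis in each of the 8 libraries, with 1 symbol per replicate and a bar at the mean of 4. Itgax separates the populations furthest, at 209 to 269 CPM in CD11c+ and 2.58 to 8.24 CPM in CD206+ cells, while Cd68 overlaps.

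The genes highest in CD11c+ relative to CD206+ cells included genes of cell fusion, matrix breakdown, lipid sensing and clotting. Dcstamp (chr15:39745930-39760938), needed for the fusion of macrophages into giant cells, was 46.2, 96.4, 59.5 and 70.7 CPM in CD11c+ and 0.298, 0.438, 0.271 and 0.264 CPM in CD206+ libraries (7.72 ± 0.38). Mmp12, the macrophage elastase, was 94.5, 321, 191 and 204 CPM against 1.69, 1.31, 1.08 and 1.11 CPM (7.28 ± 0.72). CD11c+ replicate 1 was the lowest of its population for both. Adam8, a membrane protease of myeloid cells, was 335, 439, 343 and 389 CPM against 13.1, 14.7, 9.29 and 20.1 CPM (4.72 ± 0.27). Hr, a nuclear corepressor, read 95.8 to 131 CPM against 0.722 to 1.59 CPM (6.53 ± 0.38). Ffar4, a receptor for long-chain fatty acids, read 9.08 to 11.9 CPM against 0.194 to 0.676 CPM (4.72 ± 0.35). F7, coagulation factor VII, was 50.8 to 76.2 CPM in CD11c+ cells and 1.04 to 1.24 CPM in 3 CD206+ libraries, with 5.71 CPM in CD206+ replicate 4 (4.79 ± 0.42). F10, which encodes factor X, was 145 to 201 CPM against 6.08 to 31.5 CPM (3.68 ± 0.40). Cd24a, a small surface glycoprotein, was higher by 5.57 ± 0.40, Upb1, an enzyme of pyrimidine breakdown, by 5.61 ± 0.54, and Ear2, a secreted ribonuclease, by 5.91 ± 0.42. Ear2 has near-identical copies among which reads may be split, so its level is uncertain.

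The largest differences in the other direction included genes known from resident macrophages. Lyve1 (chr7:110850607-110862953), a hyaluronan receptor, was 6.59, 2.28, 1.42 and 0.748 CPM in CD11c+ and 225, 259, 203 and 94.9 CPM in CD206+ libraries (-6.16 ± 0.58). Vsig4, a complement receptor, was 0.831, 0.557, 0.663 and 0.598 CPM against 22.7, 34.8, 26.7 and 22.2 CPM (-5.32 ± 0.53). Cxcl13, a chemokine that draws B cells, was 41, 31, 26.9 and 32.6 CPM against 733, 747, 764 and 785 CPM (-4.53 ± 0.53). All CD206+ libraries lay more than an order of magnitude above all CD11c+ libraries for these genes. Cd209f and Cd209g, lectins of a closely related cluster, differed by -5.51 ± 0.56 and -5.60 ± 0.53. Ednrb, the endothelin B receptor, fell by 4.29 ± 0.52 on the log2 scale, C6, a part of the membrane attack complex, by 5.14 ± 0.45, Ltc4s, leukotriene C4 synthase, by 4.07 ± 0.34, and Cbr2, a carbonyl reductase, by 4.10 ± 0.39. CD206+ replicate 4 was the lowest of its population for Lyve1, Cd209f, Cd209g, Ednrb, C6 and Cbr2. For each it lay above every CD11c+ library, but no overlap was a condition for ranking genes by their difference.

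**Figure D3:**
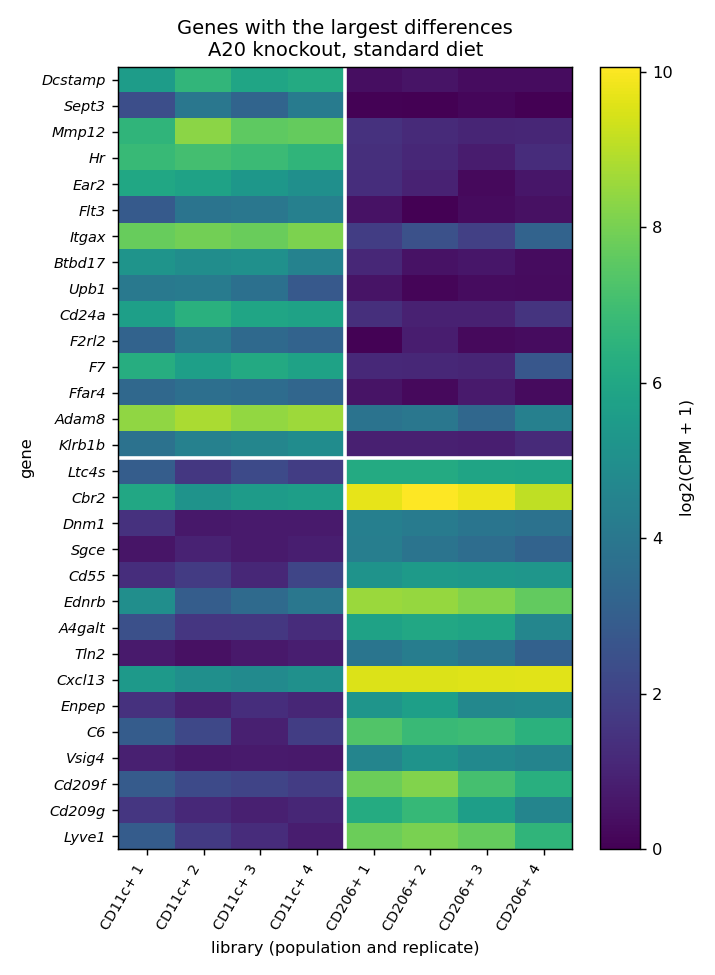
Log2(CPM + 1), 1 column per library, of the 15 genes highest and the 15 lowest in CD11c+ relative to CD206+ cells. The ranking took passing genes with a mean of at least 10 CPM in the higher population and no overlap between the populations. That each gene keeps its side in all 4 libraries of a population follows from this choice. Itgax, a gene of the sort, stood at 209 to 269 CPM on the left and 2.58 to 8.24 CPM on the right.

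Cell division genes were higher in CD11c+ cells almost throughout. Of 44 tested genes of the cell cycle list, 42 were higher and 0 lower, with a median of 1.49 against -0.05 for all genes. Of all tested genes, 25.6% were higher and 26.1% lower. Rrm2, the small subunit of ribonucleotide reductase that makes deoxynucleotides, was 52.4, 82.8, 105 and 62.4 CPM in CD11c+ and 11, 11.5, 17.3 and 16.7 CPM in CD206+ cells (2.42 ± 0.24). Ube2c, which feeds the anaphase-promoting complex, was 23.3, 31.7, 34.6 and 21.7 CPM against 4.36, 5.2, 5.64 and 7.45 CPM (2.30 ± 0.25). Ccnb1, the mitotic cyclin B1, was 26.5, 40.5, 45.1 and 30.1 CPM against 7.24, 5.54, 7.13 and 12.8 CPM (2.12 ± 0.26). For each of these genes all CD11c+ libraries lay above all CD206+ libraries. Cdca3, a trigger of mitotic entry, was higher by 2.21 ± 0.23. The 2 genes that did not pass were Mki67 at 0.63 ± 0.30 (adjusted p = 0.0793) and Cenpf at 0.71 ± 0.31 (adjusted p = 0.0561), both named after their values were seen; with the replicate block all 44 were higher.

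Many promoters of these division genes held a CCAAT box. Of the 44 genes, 36 had a RefSeq promoter of 300 bases, from 250 before to 50 after the gene's start, and 29 of them (80.6%) held CCAAT on either strand. Among tested genes with a promoter the share was 38.6% of 10243, and it was 37.9% of all 27025 promoters. TTTGAA, the core of the cell cycle homology region, was in 18 of 36 (50%), against 12% of tested genes and 18.1% of all promoters. A match is a description of letters and not a shown binding site. The promoters of the 4 division genes with the largest differences are shown 5′ to 3′ on the strand of the gene (RefSeq, GRCm38.p6), with CCAAT or its reverse complement ATTGG in capitals, to let the spacing of the boxes be compared.
Ube2c, chr2:164769679-164769978, plus strand: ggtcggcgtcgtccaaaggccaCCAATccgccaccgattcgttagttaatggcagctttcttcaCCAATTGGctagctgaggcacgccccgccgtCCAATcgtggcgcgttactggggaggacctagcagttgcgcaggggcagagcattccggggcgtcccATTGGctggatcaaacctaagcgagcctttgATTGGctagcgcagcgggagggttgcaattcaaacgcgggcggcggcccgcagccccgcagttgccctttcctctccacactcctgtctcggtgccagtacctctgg
Cdca3, chr6:124829926-124830225, plus strand: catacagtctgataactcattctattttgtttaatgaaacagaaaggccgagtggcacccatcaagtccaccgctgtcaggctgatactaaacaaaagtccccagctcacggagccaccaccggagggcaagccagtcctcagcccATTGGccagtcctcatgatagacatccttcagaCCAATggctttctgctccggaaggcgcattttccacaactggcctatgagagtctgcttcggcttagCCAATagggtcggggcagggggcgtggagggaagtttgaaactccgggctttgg
Ccnb1, chr13:100786437-100786736, minus strand: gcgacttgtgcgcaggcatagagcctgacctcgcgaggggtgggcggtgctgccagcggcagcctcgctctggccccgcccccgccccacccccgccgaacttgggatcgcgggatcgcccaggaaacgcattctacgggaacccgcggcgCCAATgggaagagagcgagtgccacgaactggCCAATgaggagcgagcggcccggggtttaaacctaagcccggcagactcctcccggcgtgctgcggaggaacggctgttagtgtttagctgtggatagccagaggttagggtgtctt
Rrm2, chr12:24708004-24708303, plus strand: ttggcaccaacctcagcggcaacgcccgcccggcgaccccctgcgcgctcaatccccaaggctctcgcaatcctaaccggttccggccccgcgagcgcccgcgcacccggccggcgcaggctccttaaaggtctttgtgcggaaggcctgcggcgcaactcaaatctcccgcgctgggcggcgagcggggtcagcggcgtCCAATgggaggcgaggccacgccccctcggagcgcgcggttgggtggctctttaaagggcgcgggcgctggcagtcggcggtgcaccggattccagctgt
Ube2c held 6 matches, with 2 of them overlapping in CCAATTGG, Cdca3 held 3, Ccnb1 held 2 and Rrm2 held 1.

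Genes of energy metabolism were mostly higher in CD11c+ cells, where 25.6% of all genes were higher and 26.1% lower. Of 61 tested genes of oxidative phosphorylation, 59 were higher and 0 lower, by small and even amounts (median 0.67). Uqcrfs1, the iron-sulfur subunit of complex III, was 182, 186, 185 and 154 CPM in CD11c+ and 84.1, 72.5, 76.5 and 94.6 CPM in CD206+ cells (1.11 ± 0.09). Cyc1, cytochrome c1 of the same complex, was higher by 1.01 ± 0.08, and Ndufa6 of complex I and Atp5e of the ATP synthase by 0.97 ± 0.13 each. Glycolysis genes showed 15 higher and 2 lower of 20, with a median of 1.00. Pfkp, a phosphofructokinase, was 332, 349, 343 and 338 CPM against 94.1, 98.6, 93.5 and 135 CPM (1.69 ± 0.14). Slc2a1, the glucose transporter GLUT1, was higher by 1.53 ± 0.30 and Slc16a3, the lactate exporter MCT4, by 1.76 ± 0.30. Replicate 4 was the highest of the CD206+ libraries for Pfkp, Slc2a1 and Slc16a3, at 135, 74.1 and 77.3 CPM, and stayed below the CD11c+ libraries. The 2 lower genes, picked out for their direction, were Pfkfb3, which makes an activator of glycolysis (-1.14 ± 0.15), and Pfkm, the muscle phosphofructokinase (-0.75 ± 0.22).

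Sterol synthesis genes were higher in CD11c+ cells, and sterol export genes went both ways. The list of cholesterol synthesis and its regulator SREBP had 20 higher and 1 lower of 25 (median 0.79). Mvd, a decarboxylase of the mevalonate route, was 35.8, 42.1, 30.1 and 30.2 CPM in CD11c+ and 10.3, 11.8, 13 and 14.6 CPM in CD206+ cells (1.47 ± 0.18), without overlap. The stearoyl desaturases moved apart: Scd2 was higher by 1.64 ± 0.39, while Scd1 was 15.5, 43.1, 32.6 and 16.5 CPM against 72.4, 183, 153 and 59.7 CPM (-2.12 ± 0.43). Replicates 2 and 3 read higher than 1 and 4 for Scd1 in both populations. In the cholesterol efflux list, 7 genes were higher and 5 lower of 15, beside 25.6% higher and 26.1% lower of all genes. Apoe, the main lipid acceptor made by macrophages, was 2230, 1920, 1410 and 2240 CPM against 13100, 13000, 10100 and 8710 CPM (-2.53 ± 0.20). Ch25h and Cyp27a1, which make oxysterols, fell by 2.51 ± 0.37 and 1.87 ± 0.18 on the log2 scale. Of 16 sterol genes with a promoter, 13 (81.2%) held CCAAT, against the 38.6% above, and 1 (6.25%) held CACCCCAC, a sterol element, against 2.92% of tested genes.

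Lipid uptake genes were mixed, and genes of fatty acid oxidation that passed were mostly higher. Fatty acid uptake and storage had 9 higher and 7 lower of 27 (median 0.15), near the shares of all genes, 25.6% higher and 26.1% lower. Fabp5, a fatty acid carrier of macrophages, was 124, 175, 150 and 176 CPM in CD11c+ and 18.5, 28.2, 19.2 and 42.7 CPM in CD206+ cells (2.53 ± 0.25). Marco, a scavenger receptor, was 9.48 to 12.7 CPM against 59.7 to 118 CPM (-2.99 ± 0.61). Fatty acid oxidation had 11 higher and 2 lower of 21 (median 0.20), beside the same shares of all genes. With the replicate block 11 were higher and 1 lower. Its largest rises were Ppargc1b, a coactivator of mitochondrial genes (0.93 ± 0.18), and Acaa2 (0.81 ± 0.12) and Echs1 (0.75 ± 0.10), both enzymes of beta-oxidation.

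The lipid-associated macrophage list, genes known from lipid-laden cells of obese fat, was mostly higher in CD11c+ cells on SD, with 21 higher and 5 lower of 30 (median 0.91). Gpnmb, a glycoprotein of lysosome-rich macrophages, was 62.1, 165, 86.3 and 188 CPM in CD11c+ and 4.17, 14.1, 3.43 and 16.2 CPM in CD206+ cells (3.73 ± 0.59). Replicates 2 and 4 carried the most Gpnmb in both populations, and the populations did not overlap. The list holds Dcstamp, Mmp12 and Itgax, given above. Among lysosome genes, 14 were higher and 7 lower of 42 (median 0.08), beside 25.6% higher and 26.1% lower of all genes. Ctsd and Ctsk, lysosomal proteases, were higher by 1.35 ± 0.18 and 2.17 ± 0.54, Atp6v0d2, a subunit of the acidifying pump, by 1.96 ± 0.35, and Ctsf, another cathepsin, fell by 1.72 ± 0.20 on the log2 scale.

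Resident macrophage genes were lower in CD11c+ cells: of 32 tested, 25 were lower and 2 higher (median -2.19). The lower genes include Mrc1, whose protein served to sort the cells. The 2 exceptions were Fcrls, an Fc receptor-like protein, at 1130, 840, 747 and 470 CPM against 335, 393, 312 and 180 CPM (1.38 ± 0.26), and Retnla, a secreted product of IL-4-stimulated macrophages, at 1.56 ± 0.42, named for its direction. Complement genes were lower in 15 of 18 and higher in 0 (median -1.22). C4b, a component of the classical pathway, was 133, 74.2, 92.9 and 107 CPM in CD11c+ and 1280, 1160, 1150 and 782 CPM in CD206+ cells (-3.42 ± 0.44), as far as its reads can be told from its close copy. Cd55, which breaks up complement convertases, was 1.18 to 3.34 CPM against 34.7 to 43.8 CPM (-4.21 ± 0.41). C-type lectins and scavenger receptors showed 16 lower and 6 higher of 28 (median -1.08), and iron and haem genes 10 lower and 4 higher of 16 (median -0.54). The lectin list shares lower genes with the resident list, among them Mrc1, Cd163, Cd209f and Cd209g, and Cd163 is also in the iron list. Of all genes 26.1% were lower and 25.6% higher. Cd163, the receptor for haemoglobin with haptoglobin, was 26.3, 16.1, 19.8 and 13.3 CPM against 348, 197, 237 and 113 CPM (-3.57 ± 0.35). Cp, a plasma iron oxidase, Trf, the iron carrier transferrin, and Slc40a1, the iron exporter, were lower by 2.93, 2.16 and 2.45 on the log2 scale.

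**Figure D4:**
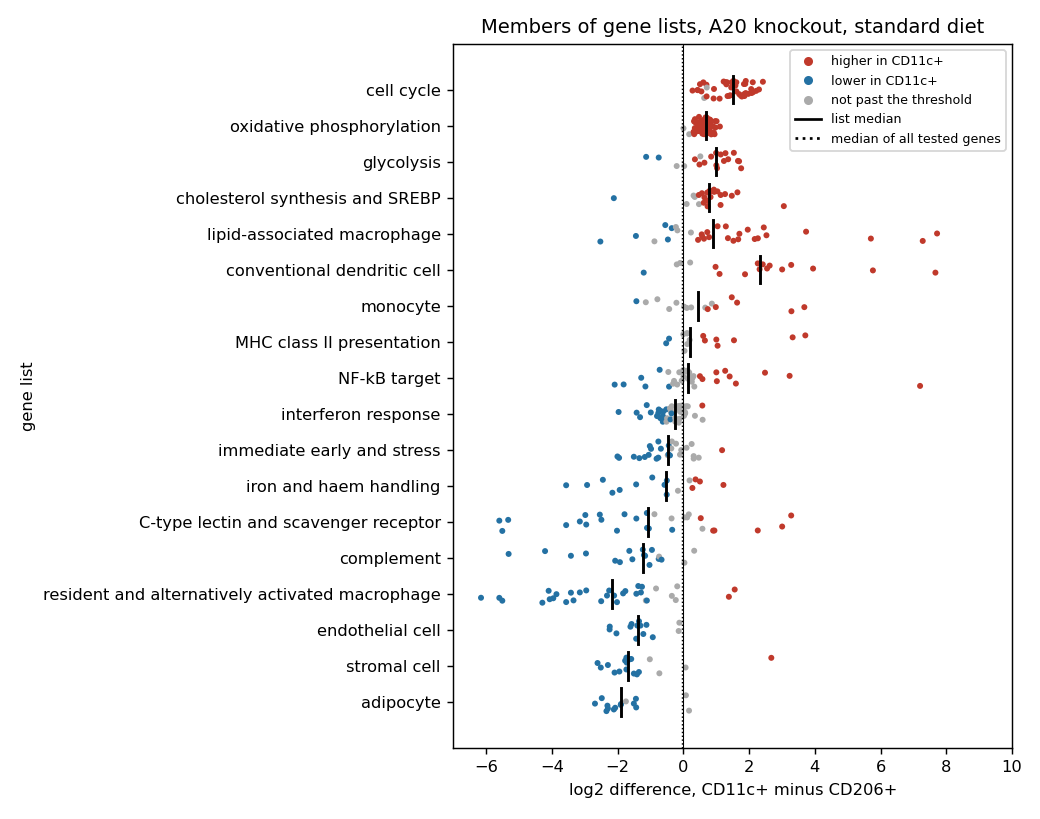
Log2 difference of CD11c+ minus CD206+ cells for each tested member of 18 gene lists (1 point per gene), with a bar at the list median and a dotted line at the median of all genes, -0.05. Cell cycle (median 1.49) and resident macrophage genes (median -2.19) lie on opposite sides, while NF-kB targets straddle 0 with a median of 0.13.

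Targets of NF-kB, the pathway A20 restrains, had 10 higher and 6 lower of 34 tested in CD11c+ cells (median 0.13), not far from the 25.6% and 26.1% of all genes. Il6, an inflammatory cytokine, was 95.1, 179, 142 and 54.6 CPM in CD11c+ and 14.7, 17.5, 23.5 and 28.7 CPM in CD206+ cells (2.48 ± 0.38). Ccl3, a chemokine for monocytes and T cells, was 33.9, 49.1, 44 and 36.5 CPM against 113, 315, 171 and 98.4 CPM (-2.09 ± 0.32). Neither gene overlapped, and they lay in opposite directions. Of 16 genes of the A20 complex and its receptors, 6 were higher and 2 lower (median 0.14). The higher genes of both lists include the targeted gene Tnfaip3, whose call depended on single libraries, as given above. Tnip3, which binds A20, was 173 to 254 CPM against 76.2 to 147 CPM (1.06 ± 0.25), and Ripk3, the kinase of necroptosis, and Tnfrsf1b, a TNF receptor, were higher by 0.63 each, with SE of 0.15 and 0.14.

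Chemokine ligands were found on both sides, with 5 higher and 12 lower of 25 in CD11c+ cells (median -0.19), beside 25.6% and 26.1% of all genes. The median ranged from -0.21 to -0.53 with 1 library left out, and was lowest without CD11c+ replicate 4 and -0.40 without CD206+ replicate 1. Ccl17, a ligand for CCR4 on T cells, was 1.35, 9.71, 4.12 and 2.69 CPM in CD11c+ cells and at 0, 0, 0.0902 and 0 CPM in CD206+ cells. Ccl22, which binds the same receptor, was 13.9, 64.2, 41.4 and 40.2 CPM against 3.72, 3.99, 3.65 and 5.71 CPM (3.23 ± 0.58). Cxcl3, a neutrophil attractant, was higher by 3.58 ± 0.38. In the other direction, Ccl8, a ligand for monocytes and T cells, was 191, 140, 129 and 150 CPM against 2010, 2650, 2470 and 1750 CPM (-3.87 ± 0.46). Chemokine receptors had 5 higher and 6 lower of 18, near the shares of all genes, with a median of -0.46 that was -0.23 without CD206+ replicate 4. Ccr7, which guides dendritic cells to lymph nodes, was 15.7, 54.7, 31.6 and 39.4 CPM against 3.97, 1.75, 3.16 and 2.54 CPM (3.63 ± 0.50), and CD11c+ replicate 1 was the lowest of its population for Ccl17, Ccl22 and Ccr7. Fpr1, a receptor for bacterial formyl peptides, was lower by 2.28 on the log2 scale. Among cytokines and growth factors, with 8 higher and 13 lower of 30 (median -0.45), Areg, a ligand of the EGF receptor, was 14.5 to 42.6 CPM against 1.54 to 3.22 CPM (3.53 ± 0.34) and Vegfa, the vascular growth factor, was higher by 2.54 ± 0.40. Gas6, which bridges dying cells to Mertk, was 64.6 to 111 CPM against 544 to 1040 CPM (-3.42 ± 0.28).

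Interferon response genes that passed were mostly lower, with 17 lower and 1 higher of 45 (median -0.25), beside 26.1% lower and 25.6% higher of all genes. The number of lower genes was 10 without CD11c+ replicate 2 and 11 without CD11c+ replicate 1 or CD206+ replicate 4, and the median was -0.53 without CD11c+ replicate 4, -0.40 without CD206+ replicate 1 and -0.39 without CD206+ replicate 2. Oas2, an antiviral sensor, was 7.22, 11.9, 12.1 and 12.8 CPM in CD11c+ and 43.6, 41, 45.3 and 42.8 CPM in CD206+ cells (-1.97 ± 0.25). Iigp1, Mx2 and Ifit3, all interferon-induced defence genes, fell by 1.42, 1.32 and 1.12 on the log2 scale. Immediate early and stress genes were lower in 15 and higher in 1 of 27 (median -0.46). Jun, an AP-1 factor, was 314, 251, 300 and 272 CPM against 1250, 1320, 1270 and 740 CPM (-2.01 ± 0.20), and Egr1, an early growth response factor, was lower by 1.96 ± 0.25. Of 15 MHC class II genes, 7 were higher and 2 lower (median 0.19). H2-DMb2, part of the peptide exchange factor, was 42.7, 58.5, 43.2 and 30.6 CPM against 4.46, 2.87, 3.02 and 3.01 CPM (3.71 ± 0.31), and H2-Oa, part of its inhibitor, was higher by 3.32 ± 0.45. The protease Ctss, which trims the invariant chain, was higher by 1.04 ± 0.13. Cd74, the invariant chain itself and named after its values were seen, did not pass (0.12 ± 0.15, adjusted p = 0.522). Dendritic cell markers, given below, moved the same way as H2-DMb2 and H2-Oa, and their part was not tested.

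Transcription factors of macrophages had 11 higher and 8 lower of 30 (median -0.04), not far from the 25.6% and 26.1% of all genes. Bhlhe40, a repressor of the helix-loop-helix family, was 261, 348, 277 and 255 CPM in CD11c+ and 19.6, 21.7, 23.9 and 43.7 CPM in CD206+ cells (3.39 ± 0.28). Id2, an inhibitor of the same family, and Runx3, a runt factor, were higher by 1.84 ± 0.20 and 1.99 ± 0.30. Maf, a factor of resident macrophages, was 50.7, 31.6, 40.2 and 45.9 CPM against 132, 167, 156 and 147 CPM (-1.84 ± 0.14).

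Markers of other cells also differed between the populations. Of all genes 25.6% were higher and 26.1% lower in CD11c+ cells. Of 17 conventional dendritic cell markers, 13 were higher and 1 lower in CD11c+ cells (median 2.32), with a summed level of 1750 to 2360 CPM against 1370 to 1660 CPM and none at 0. Flt3, the receptor that drives dendritic cell growth, was 6.13, 13.6, 15.1 and 19.8 CPM in CD11c+ and 0.397, 0, 0.225 and 0.37 CPM in CD206+ cells, and Xcr1, which marks the cross-presenting type, 9.24 to 15.9 CPM against 2.08 to 3.26 CPM. Zbtb46, a defining factor of these cells named after its values were seen, did not pass (-0.20 ± 0.21, adjusted p = 0.442). Of 13 migratory dendritic cell markers 8 were higher and 1 lower, at sums of 1540 to 2250 CPM against 1600 to 2150 CPM. Monocyte markers had 6 higher and 1 lower of 16, and their sum was 7340 to 9940 CPM against 1060 to 2560 CPM. Fn1, the matrix protein fibronectin, made up most of that sum in CD11c+ cells, at 5460 to 7600 CPM against 394 to 1170 CPM.

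Markers of non-immune cells were mostly higher in CD206+ cells. Counts in this paragraph stand beside 25.6% higher and 26.1% lower of all genes in CD11c+ cells. Endothelial markers were lower in CD11c+ cells in 12 and higher in 0 of 14, with sums of 97 to 137 CPM against 223 to 271 CPM. Stromal markers were lower in 14 and higher in 1 of 18, at 662 to 834 CPM against 750 to 1370 CPM, and adipocyte markers lower in 12 and higher in 0 of 15, at 244 to 348 CPM against 465 to 683 CPM. Tek, an endothelial receptor, was 0.598 to 1.81 CPM against 4.31 to 6.51 CPM, and none of the markers of these 3 cell types was at 0. The exception among stromal genes was Pi16, a protease inhibitor of progenitor fibroblasts, at 14.4 to 25.3 CPM against 2.57 to 3.43 CPM (2.67 ± 0.38). Plasmacytoid dendritic cell markers were lower in 4 and higher in 2 of 8, at 123 to 156 CPM against 235 to 307 CPM. Cd4, a T cell co-receptor that macrophages can carry, was 13.7 to 26.1 CPM against 67.1 to 102 CPM, while the T cell list as a whole had 1 higher and 1 lower of 14. The sum of the T cell list was 78.7 to 119 CPM against 113 to 182 CPM. B cell markers were lower in 4 and higher in 0 of 9 with Pax5 at 0, at sums of 60.8 to 153 CPM against 41.7 to 116 CPM. Natural killer markers were higher in 2 and lower in 0 of 9 with Klra4 at 0. Their sums did not overlap, at 73.1 to 115 CPM against 22.8 to 57.4 CPM. Mast cell markers were lower in 4 and higher in 1 of 7, at sums of 3.06 to 19.6 CPM and 2.28 to 21 CPM. Neutrophil markers had 2 higher and 1 lower of 9 with Stfa2l1 at 0, at sums of 63.7 to 99.2 CPM against 88.3 to 115 CPM. Eosinophil markers had 2 higher and 1 lower of 6 with Epx and Ear6 at 0, at 6.83 to 7.57 CPM against 4.36 to 18.9 CPM. Mesothelial markers had 0 higher and 1 lower of 9, at 5.83 to 48.5 CPM against 6.34 to 86.1 CPM, and the count of lower genes was 9 with the replicate block, 7 without CD11c+ replicate 2 and 8 without CD206+ replicate 4. Of 2 tested erythroid genes 1 was lower, and Hbb-bt, Hba-a1 and Hba-a2 were at 0. The part of other cells in the gene groups above was not tested.

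Most of the population differences had the same direction with A20 present. In wild-type mice on SD, 4059 genes (30.2%) were higher and 4506 (33.5%) lower in CD11c+ cells. Of the genes higher in the knockout, 2991 were also higher in wild type, which is 86.9% of the knockout's and 73.7% of the wild type's. Of the lower genes, 2972 were shared, 84.7% and 66% of the respective lists. Only 32 genes passed in opposite directions. Across the 13453 genes, which are not independent replicates, the differences of the 2 genotypes had a Pearson r of 0.84 and a Spearman rho of 0.865. The median size of the difference was 0.43 in the knockout and 0.59 in wild type (log2, all genes).

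The difference between genotypes was tested itself. The CD11c+ minus CD206+ difference was more positive in the knockout than in wild type for 551 genes (4.1%) and more negative for 333 (2.48%), 884 in all by edgeR. With the replicate number as a block, which pairs populations in both genotypes, the count was 1612, and without replicate 4 of both knockout populations, left out after seeing the data, it was 572. Both counts differ from 884 by more than 1.5 times. Tfec, a factor of the MITF family, was 5.19, 5.9, 7.72 and 8.28 CPM in CD11c+ and 11.7, 13.5, 12.4 and 12.9 CPM in CD206+ knockout cells, a difference of -0.90 beside -4.14 in wild type. Maf was -1.84 beside -3.52, Aoah, an enzyme that detoxifies LPS, -1.02 beside -3.09, and Tlr7, a sensor of single-stranded RNA, -0.97 beside -2.48. For these genes the populations still differed without A20, by less than with it. Of 18 complement genes 9 were more positive in the knockout, among them C4b at -3.42 beside -5.39 (adjusted p = 0.0387), while Cd55 went the other way, at -4.21 beside -1.47. Of the 32 resident macrophage genes 11 were more positive and 0 more negative, with Gas6 at -3.42 beside -4.89. The list holds Mrc1, at -1.43 beside -2.06, whose protein served to sort the cells. The part of the sort in this change was not tested.

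Some differences seen in wild type did not pass in the knockout. Hcar2, the receptor for niacin and ketone bodies, was 51.9, 62.5, 52.1 and 64.1 CPM in CD11c+ and 55.9, 61.3, 50.7 and 83.7 CPM in CD206+ knockout cells, a difference of -0.12 ± 0.29 beside 2.66 in wild type, and the change of -2.78 passed (adjusted p = 0.000111). Nr4a2, a nuclear receptor induced by activation, differed by 0.31 ± 0.22 beside 2.48, and Pmaip1 and Bid, both proapoptotic BH3 proteins, by 0.35 ± 0.15 and -0.17 ± 0.10 beside 1.77 and 0.79. Within the knockout Pmaip1 was near the threshold (adjusted p = 0.0561), and it passed with the replicate block (0.0288), with no filter (0.0455), with only the groups compared (0.0202, or 0.00775 with the block) and without CD206+ replicate 4 (0.0211) or replicate 4 of both populations (0.0395). Nr4a2 (adjusted p = 0.249) passed with only the groups compared, at 0.0434 and, with the block, 0.00623. Cd52, a leukocyte glycopeptide, stayed higher in CD11c+ cells at 653 to 718 CPM against 187 to 339 CPM, 1.50 ± 0.17 beside 3.10. Tnip3 was 1.06 beside 2.63 (adjusted p of the change 0.00511). Slc13a3, a carrier of dicarboxylates, turned: 47.2, 44.8, 35.3 and 38.8 CPM against 57, 84.1, 66 and 51.5 CPM gave -0.64 ± 0.21, beside 1.35 in wild type, although the adjusted p within the knockout rose from 0.0118 to 0.066 without CD206+ replicate 2. Of the other genes that turned, Cx3cr1, the fractalkine receptor, at 0.61 beside -1.004, and Kif23, a kinesin of cell division, at 0.43 beside -0.97, were picked after their values were seen. Within the knockout Cx3cr1 was near the threshold (adjusted p = 0.0424 by edgeR), and Kif23 had an adjusted p of 0.0165.

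**Figure D5:**
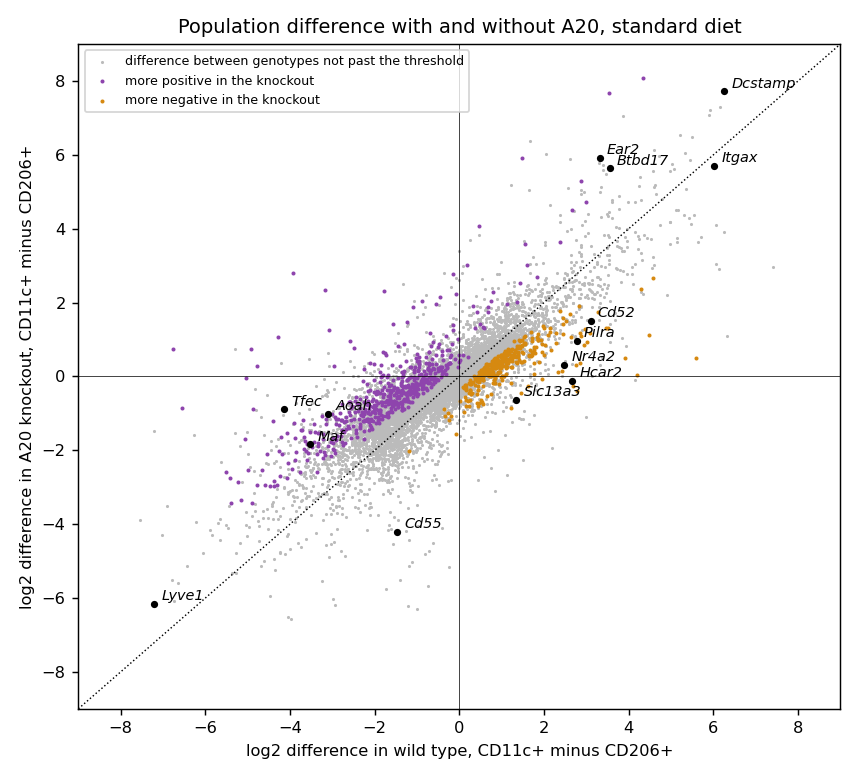
Log2 difference of CD11c+ minus CD206+ cells on SD in wild type (x axis) and in the A20 knockout (y axis), 1 point per gene, with equality dotted. The 551 and 333 genes whose difference changed are coloured, and labelled cases include Tfec at -4.14 and -0.90 and Hcar2 at 2.66 and -0.12.

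Oxidative phosphorylation, glycolysis and cholesterol synthesis had similar counts in both genotypes. More genes passed in wild type in general: 30.2% of all genes were higher and 33.5% lower, beside 25.6% and 26.1% in the knockout. The change was more positive in the knockout for 4.1% of all genes and more negative for 2.48%. Counts of changed genes in the lists below come from the fit without the replicate block, which called 884 genes in all. With the block 1612 genes changed, and these were not counted by list. Oxidative phosphorylation had 58 higher and 0 lower in wild type (median 0.73) beside 59 and 0 in the knockout, and for 0 genes the difference was more positive and for 2 more negative in the knockout. Glycolysis had 16 higher and 3 lower (median 1.23), and cholesterol synthesis 21 and 1 (median 0.89), with no gene called as changed between genotypes in either list. Fatty acid oxidation had 9 higher and 5 lower in wild type beside 11 and 2, with 2 genes more positive in the knockout. Fatty acid uptake and storage had 10 and 8 beside 9 and 7, with 2 more positive and 1 more negative. Cell cycle genes had 39 higher and 1 lower in wild type (median 1.03), and 4 were more positive in the knockout. For NF-kB targets wild type had 22 higher and 5 lower (median 0.60) beside 10 and 6 in the knockout, with 4 more negative and 1 more positive by the test of the change. This list holds Tnfaip3, the targeted gene itself. Interferon genes had 6 higher and 24 lower (median -0.59) beside 1 and 17, with 4 more positive and 1 more negative.

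High-fat feeding did not yield a called change of the population difference in knockout cells. On HFD 3136 genes (23.3%) were higher and 3031 (22.5%) lower in CD11c+ cells. Of the SD lists, 2842 higher genes (82.6% of SD and 90.6% of HFD) and 2517 lower genes (71.7% and 83%) were shared, and 0 passed in opposite directions. Across genes Pearson r was 0.878 and Spearman rho 0.903. The test of the difference between diets called 0 of 13453 genes (0%) by edgeR, with 406 at an unadjusted p under 0.05, and 0 by DESeq2, with 436. Both 406 and 436 are fewer than this unadjusted cutoff would pass by chance among 13453 genes. A p that misses the threshold does not show that the diets act alike. Mmp12 was 7.28 on SD beside 4.59 on HFD, Lyve1 -6.16 beside -4.32 and Dcstamp 7.72 beside 6.07, and none of these changes passed. These genes were named for their large differences on SD, so smaller differences on HFD may follow from that choice. Cell cycle genes on HFD had 40 higher and 0 lower of 44 (median 1.21), resident genes 2 and 25 of 32 (median -1.82), and complement 0 and 15 of 18 (median -0.88). Counted over SD knockout, SD wild type and HFD knockout together, 2603 genes were higher and 2231 lower in CD11c+ cells in each of them.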

How the data were processed

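The 8 libraries, and the libraries set beside them, were grouped by sample title. The members and gene lists were chosen with earlier results of these data known. The build was mm10 (GRCm38) and the tools TopHat2 2.1.0, SAMtools 0.1.18, Trimmomatic 0.35 and FastQC 0.11.4, per the submitters' processing notes. No source used here gives the counter, annotation or strand setting, so overlapping, antisense and near-identical genes are uncertain. The authors deposited raw read counts for 24421 genes, and 5 entries naming no gene (reads outside genes 5.16% to 10.2%, ambiguous reads 1.18% to 1.48% in the 8 libraries) were left out. Counts of all 32 libraries entered 1 fit with 8 group means in edgeR 4.0.16 (R 4.3.3; filterByExpr minimum count 10, TMM, quasi-likelihood test, Benjamini-Hochberg), which kept 13453 genes. This main fit did not pair libraries by replicate number. The steps were also run on simulated counts with few changed genes and independent libraries. These data differ in both, so that run does not check the calls made here. CPM are TMM-scaled. Same-numbered SD knockout libraries deviated together (r of 0.449, 0.322, 0.28 and 0.321 over 8074 genes), as did wild-type ones, but not all HFD knockout ones (-0.00405, -0.127, 0.449 and 0.439), which are also in the block; the labels give no other pairing.

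Named were the sort list, up to 15 genes per direction with the largest difference (at least 10 CPM, no overlap), up to 4 passing members per pathway list and 3 per marker list, and up to 8 per direction of the genotype change; 180 genes qualified and a part is described; some others are not reported here. Alternatives were DESeq2 1.42.0, its size factors, no filter, only the groups compared, the replicate block and each replicate left out. Promoters came from RefSeq.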

Additional observations from a re-analysis of the deposited data

Results flagged for a closer look

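A single library stood far from the other 3 of its group for 26 gene and group pairs (Dixon's test at the 95% level), where chance gives about 1 in 20. The pairs examined were 360, and they include genes not reported here, whose outliers are left out of the 26. The share of outliers among all 360 may therefore be larger. CD206+ replicate 4 was the outlying library for 12 of the 26. In CD206+ cells replicate 1 was far above the rest for H2-DMb2 4.46 CPM. In CD206+ cells replicate 2 was far above the rest for Lep 5.88 and Mreg 0.292 CPM. In CD206+ cells replicate 3 was far above the rest for Ccl17 0.0902 CPM. In CD206+ cells replicate 4 was far above the rest for Ccl22 5.71, Col5a1 8.19, F10 31.5, F7 5.71, H2-Eb2 5.18, Klrb1b 1.32, Mmp2 15.5, Pfkp 135, Ptprc 689, Slc2a1 74.1 and Tnip3 147 CPM. Far below the rest in CD206+ cells were Mmp19 13.1 CPM (replicate 2); Jun 740 CPM (replicate 4). In CD11c+ cells replicate 1 was far above the rest for Dnm1 1.71 and Itga11 0.156 CPM. In CD11c+ cells replicate 2 was far above the rest for Cd52 718 and Lep 1.35 CPM. In CD11c+ cells replicate 4 was far above the rest for Cpa3 0.299 and Slc2a1 135 CPM. Far below the rest in CD11c+ cells were Il1r2 0.208 and Oas2 7.22 CPM (replicate 1); Uqcrfs1 154 CPM (replicate 4).

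The population difference on SD changed with the genotype for 39 of the genes reported from the 180 that the naming rule chose, at an adjusted p under 0.05 by edgeR. The rule took up to 8 genes per direction for this change itself, so that count is partly set by the choice; of all genes 4.1% were more positive and 2.48% more negative. The change, knockout minus wild type on the log2 scale, was positive for Aoah 2.08, Btbd17 2.08, C4b 1.97, Clmp 1.43, Cp 1.66, Csf1r 0.69, Cxcl3 2.04, Cyp27a1 0.87, Ear2 2.60, Fabp5 1.09, Fam213b 1.77, Ffar4 1.73, Gas6 1.46, Ier3 1.00, Maf 1.69, Mertk 1.10, Mrc1 0.63, Oas2 1.70, Pigz 2.04, Sept3 4.12, Sorbs3 1.89, Tcf4 0.78, Tfec 3.25 and Tlr7 1.50. It was negative for Bid -0.96, Cd14 -1.01, Cd52 -1.60, Cd55 -2.74, Hcar2 -2.78, Klrk1 -1.93, Lyz2 -0.74, Ndufa6 -0.75, Nr4a2 -2.16, Pilra -1.81, Pmaip1 -1.42, Prkar2a -0.88, Psmb8 -0.51, Slc13a3 -1.99 and Tnip3 -1.57. Genes in the first group that were lower in CD11c+ cells, such as Maf and Gas6, differed less between the populations in the knockout than in wild type, and Sept3, at 4.36 to 17 CPM in CD11c+ and 0 to 0.135 CPM in CD206+ knockout cells, rests on few reads in CD206+ cells.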

How the results depend on the processing

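Counts of genes that differed between the populations in the knockout, in wild type or on HFD, and of genes shared between them, moved by less than 1.5 times under each alternative tried. In the knockout, 3148 to 3456 genes were higher and 3078 to 3449 lower when 1 library was left out, and no gene of the 3440 and 3509 passed in the opposite direction under any of them. The change between genotypes moved further: 884 genes became 1612 with the replicate block, 1480 with the block and only the groups compared, 572 without replicate 4 of both SD knockout groups (added after seeing the data) and 685 to 848 with 1 library left out; the cause was not tested. The blocked SD knockout counts were 3720 higher and 3850 lower, and over all genes the block moved no other count tried by over 1.5 times. Within lists it raised mesothelial markers from 1 to 9, monocyte markers from 1 to 3 and MHC class I genes from 2 to 4 lower, and integrins from 6 to 10, MHC class I genes from 4 to 7, itaconate and arginine genes from 3 to 6 and immediate early genes from 1 to 3 higher; counts under 3 in 8 other lists moved by 1 gene. With CD11c+ replicate 1 left out, lower B cell markers went from 4 to 2, higher iron genes from 4 to 2 and lower integrins from 5 to 2; without CD11c+ replicate 4, lower T cell markers went from 1 to 4. The test between diets called 0 genes in every setting. Calls near the threshold that depend on single libraries include Tnfaip3, Lyz2 (adjusted p 0.0262, but 0.0616 or 0.0524 without CD11c+ replicate 1 or 2, and 0.11 or 0.0601 without CD206+ replicate 2 or 3) and Slc13a3. Depth limits genes near 1 read per library, as for Ccl17 in CD206+ cells.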
